A study of Mus musculus with 8 samples.

Results

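The transcripts of 10 genes of the H3K4 methylation machinery were followed in mouse pluripotent cells, out of 32334 genes listed. They are the 6 H3K4 methyltransferase genes Kmt2a, Kmt2b, Kmt2c, Kmt2d, Setd1a and Setd1b, the complex partners Kdm6a, Ncoa6 and Paxip1, and the H3K4 demethylase gene Kdm1a. The list was set by gene name with earlier results of these data known, no measured value entered its rule, and each symbol matched 1 Ensembl gene in the tables. Bulk RNA-seq libraries came from 4 groups of 2: Mll3/4 dCD EpiLC, WT EpiLC, Mll3/4 dCD EpiSC and WT EpiSC. All cells were of the R1 strain. EpiLC are epiblast-like cells, sampled after 2 days of differentiation, and EpiSC are epiblast stem cells, a later primed state passaged for at least 8 days. Both were made with activin A (20 ng/ml) plus bFGF (12 ng/ml), from embryonic stem cells held in 0.4 µM PD0325901 and 3 µM CHIR99021 with LIF. The EpiLC medium also held the supplement KSR, which the study does not list for EpiSC, so stage and medium cannot be told apart. The dCD cells carry mutations in Mll3 (Kmt2c) and Mll4 (Kmt2d) that remove the methyltransferase activity of both proteins. They are an edited line derived from R1, so the genotype cannot be told apart from what else separates that line from its WT parent. The labels do not say whether replicates were separate cultures, so the p-values measure spread that may be technical only.

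COMPASS complexes methylate lysine 4 of histone H3. Each holds 1 catalytic SET domain subunit on a shared core of WDR5, RBBP5, ASH2L and DPY30. SETD1A and SETD1B place much of the H3K4me3 at promoters, KMT2A (MLL1) and KMT2B (MLL2) act at Hox genes and at CpG-rich promoters, and KMT2C and KMT2D place H3K4me1 at enhancers. The enhancer complexes also hold UTX, the H3K27 demethylase encoded by Kdm6a, with the coactivator NCOA6 and the BRCT protein PTIP encoded by Paxip1. KDM1A (LSD1) removes methyl groups from H3K4me1 and H3K4me2 within the CoREST complex. The question here was whether cells without the catalytic activity of KMT2C and KMT2D held different levels of the mRNA for these enzymes or their partners.

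The upstream sequence of the members differed in base composition, and 3 are shown because Kmt2c and Kmt2d had nearly the same profile over the 8 libraries while Kdm1a did not follow it. Sequences are from RefSeq (GRCm38.p6), and 8 of the 10 members were matched to a promoter in the table used. Each run is the 250 bases before the transcription start on the minus strand of the genome, at chr5:25498784-25499033 for Kmt2c, chr15:98871206-98871455 for Kmt2d and chr4:136602724-136602973 for Kdm1a. Capitals mark GC boxes (GGGCGG on either strand, where adjoining matches can share bases) and the CCAAT box (CCAAT on either strand).
Kmt2c: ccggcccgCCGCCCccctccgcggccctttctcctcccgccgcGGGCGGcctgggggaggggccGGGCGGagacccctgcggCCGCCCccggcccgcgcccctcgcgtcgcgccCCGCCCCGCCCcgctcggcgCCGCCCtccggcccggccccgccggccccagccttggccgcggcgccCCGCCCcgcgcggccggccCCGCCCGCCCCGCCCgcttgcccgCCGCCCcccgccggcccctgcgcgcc
Kmt2d: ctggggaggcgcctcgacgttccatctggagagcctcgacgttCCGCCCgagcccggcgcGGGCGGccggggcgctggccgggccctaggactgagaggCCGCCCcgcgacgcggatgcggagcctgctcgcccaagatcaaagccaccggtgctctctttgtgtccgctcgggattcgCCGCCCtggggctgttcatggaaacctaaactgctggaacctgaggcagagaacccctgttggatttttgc
Kdm1a: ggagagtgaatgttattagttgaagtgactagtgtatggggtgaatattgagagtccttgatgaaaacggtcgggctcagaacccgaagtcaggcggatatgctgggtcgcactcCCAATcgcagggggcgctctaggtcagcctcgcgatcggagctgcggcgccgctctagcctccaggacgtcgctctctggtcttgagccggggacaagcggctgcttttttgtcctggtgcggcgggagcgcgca
The Kmt2c window was 91.6% G+C with 48 CpG and 12 GC boxes, and the Kmt2d window was 67.6% G+C with 26 CpG and 4 GC boxes. The Kdm1a window was 59.2% G+C with 21 CpG, no GC box and 1 CCAAT box. Over the 32851 promoters of the same length the medians were 52.4% G+C and 6 CpG. A GC box was present in 5 of the 8 member windows, beside 32.7% of all promoters, and a CCAAT box in 1, beside 33.8%. These matches are a description of the letters and not of bound sites. Their relation to the profile over the libraries was not tested. Kmt2a and Kmt2b were also close to the mean profile of Kmt2c and Kmt2d (r = 0.98 each). Among windows not shown, GC boxes numbered 4 for Kmt2a, 2 for Paxip1 (r = 0.31 to that profile) and 1 for Kdm6a (r = 0.73). The Setd1a (r = 0.88) and Ncoa6 (r = 0.80) windows had no GC box.

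Values are given below as scaled TPM, TPM (transcript abundance scaled to a fixed total) times 1 factor per library, a unit that corrects for transcript length, and with no counts in the tables the read depth is unknown. Column sums ranged over 813537 to 1033290 and genes above 0 over 18295 to 19218. The epiblast marker Pou5f1 (OCT4) was at 1834 and 1387 in dCD EpiLC, against 1527 and 1707 in WT EpiLC, and at 942.3 and 869.5 in dCD EpiSC, against 1140 and 1223 in WT EpiSC. T (Brachyury), a gene of the later primed state, was at 292.2 and 319.0 in dCD EpiSC, against 241.0 and 196.1 in WT EpiSC, and at 17.8 and 18.2 in dCD EpiLC, against 4.25 and 3.75 in WT EpiLC, and it rose at both stages (adjusted p = 0.0428 in EpiSC and 0.000372 in EpiLC). Of the 6 late primed markers 1 rose in dCD EpiLC and 3 in dCD EpiSC, where Mixl1 rose by log2 2.50 and Eomes by 1.80, and 1 fell at each stage, Nkx1-2 (log2 -1.97 in EpiLC and -1.13 in EpiSC). Of 5 naive markers tested 4 rose in dCD EpiLC, Esrrb by log2 2.26, and the 6 listed summed to 42.1 and 41.8 in dCD EpiLC, against 17.6 and 17.2 in WT EpiLC. In dCD EpiSC 2 naive markers rose and 1 fell. Of 6 epiblast markers 1 rose in dCD EpiLC, Sox2 (log2 0.71), and 0 passed in EpiSC. Among fibroblast or feeder markers Col3a1 was at 1.15 and 2.44 in dCD EpiLC, against 44.1 and 40.8 in WT EpiLC, and among visceral endoderm markers Afp was at most 0.487 in any library. In EpiLC 0 of 6 fibroblast or feeder markers rose in dCD and 3 fell, and in EpiSC 2 rose and 0 fell. In EpiSC 2 of the 3 visceral endoderm markers tested rose in dCD and 1 fell, Sox17 being at 183.5 and 163.1 in dCD, against 92.8 and 62.5 in WT. Summed over the list, the 6 fibroblast or feeder markers came to 17.63 and 20.99 in dCD EpiLC, against 73.6 and 70.1 in WT EpiLC, and to 36.1 and 42.8 in dCD EpiSC, against 24.3 and 25.5 in WT EpiSC. The 4 visceral endoderm markers listed came to 2.65 and 2.52 in dCD EpiLC, against 1.07 and 0.996 in WT EpiLC, and to 215.6 and 198.0 in dCD EpiSC, against 105.2 and 70.9 in WT EpiSC. Sox17 and Gata4, which primed cells on the way to endoderm also express, made up nearly all of that EpiSC sum. Over all genes tested 10.1% passed in EpiLC and 14.5% in EpiSC. The part of these marker shifts in the member values was not tested. In bulk RNA, fewer cells of a type and less RNA per cell cannot be told apart.

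**Figure D1:**
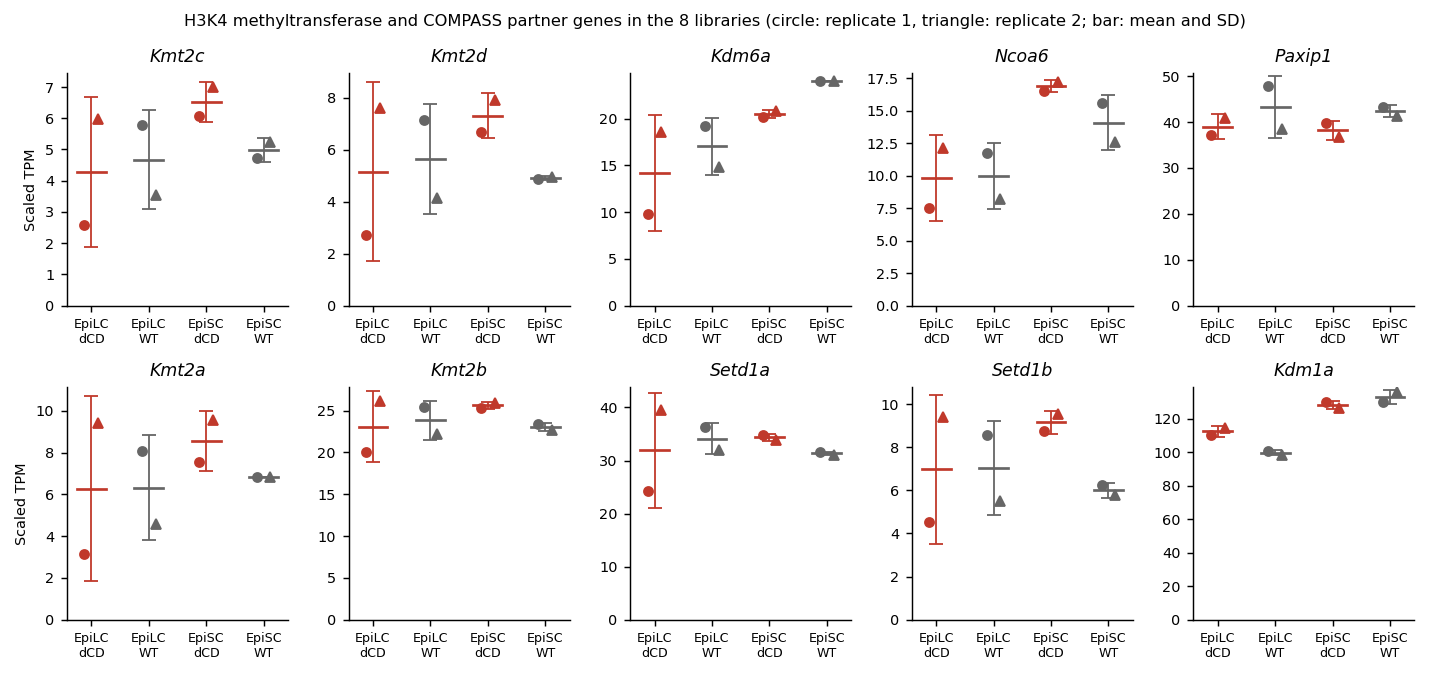
Scaled TPM of the 10 genes (vertical axis of each panel, from 0) in dCD and WT libraries of EpiLC and EpiSC, with circles for replicate 1, triangles for replicate 2, and the mean with its SD (n = 2). In EpiLC the replicates of 1 genotype lay far apart for the long transcripts (Kmt2d 2.72 and 7.59 in dCD, against 7.15 and 4.15 in WT), and in EpiSC they lay close (6.70 and 7.93 in dCD, against 4.86 and 4.96 in WT).

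All 10 genes were above a scaled TPM of 1 in every library, so none was lost to the filter on low values (at least 1 in at least 2 libraries, 12717 genes tested). None of the 10 passed the limma test in dCD EpiLC, where 10.1% of all genes tested passed an adjusted p under 0.05, and none in dCD EpiSC, where 14.5% did. At an unadjusted p under 0.05 the member count was also 0 at each stage, beside 24.5% of all genes in EpiLC and 28.3% in EpiSC. The median log2 fold change of dCD over WT was -0.13 over the 10 members in EpiLC, with 1 positive, and 0.20 in EpiSC, with 7 positive, while over all genes tested it was 0.03 in EpiLC and -0.01 in EpiSC. Log2 fold changes are on the log2(value + 1) scale, which understates changes of low genes.

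The genes that carry the mutations were described first. Kmt2c (chromosome 5, 25271798 to 25498783, minus strand, GRCm38 coordinates from GENCODE M21 here and below) was at 2.57 and 5.97 in dCD EpiLC, against 5.79 and 3.55 in WT EpiLC. The WT values lay between the dCD values. In EpiSC Kmt2c was at 6.06 and 6.98 in dCD, against 4.72 and 5.26 in WT, and both dCD values lay above both WT values. The log2 fold change was -0.16 ± 0.33 (SE) in EpiLC (95% interval -0.93 to 0.62, limma with Benjamini-Hochberg adjustment over all genes, adjusted p = 0.834) and 0.33 ± 0.33 in EpiSC (-0.44 to 1.10, adjusted p = 0.591).

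Kmt2d (chromosome 15, 98831669 to 98871204, minus strand) was at 2.72 and 7.59 in dCD EpiLC, against 7.15 and 4.15 in WT EpiLC, again with both WT values between the dCD values. In EpiSC it was at 6.70 and 7.93 in dCD, against 4.86 and 4.96 in WT, so that the lower dCD library was above the higher WT library. The log2 fold change was -0.20 ± 0.39 in EpiLC (-1.12 to 0.73, adjusted p = 0.825) and 0.49 ± 0.39 in EpiSC (-0.44 to 1.41, adjusted p = 0.490). Either interval reaches past 1 on the log2 scale on 1 side, so the test does not show that dCD and WT cells held the same Kmt2d mRNA. Substitutions in the protein leave the transcript in place, and these levels check nothing about the genotype labels. The EpiSC value passed when the EpiSC libraries were fitted without the EpiLC libraries, whose replicates differ more (adjusted p = 0.0436 for the same log2 fold change), a setting in which 27.6% of all genes passed.

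The ratio of Kmt2d to Kmt2c was taken within each library. It was 1.06 and 1.27 in dCD EpiLC, against 1.24 and 1.17 in WT EpiLC, and 1.11 and 1.13 in dCD EpiSC, against 1.03 and 0.944 in WT EpiSC. The highest of these was 1.35 times the lowest. The ratio of Kmt2d to Kmt2a spread less, over 1.28 times, that to Setd1b over 1.43 times and that to Kdm1a over 2.87 times, so a narrow ratio was not particular to the Kmt2c and Kmt2d pair. Kmt2d was the higher of the pair in 7 of 8 libraries by at most 1.27 times.

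Kdm6a, Ncoa6 and Paxip1 encode subunits that set the KMT2C and KMT2D complexes apart. Kdm6a (chromosome X, 18162575 to 18279936, plus strand) was at 9.81 and 18.6 in dCD EpiLC, against 19.2 and 14.9 in WT EpiLC, and the groups overlapped. In EpiSC it was at 20.2 and 20.8 in dCD, against 24.0 and 24.0 in WT, and both dCD values were the lower ones. Its log2 fold change was -0.30 ± 0.27 in EpiLC (adjusted p = 0.574) and -0.22 ± 0.27 in EpiSC (adjusted p = 0.671). Because Kdm6a was lower and Kmt2d higher in dCD EpiSC, the Kmt2d to Kdm6a ratio was 0.332 and 0.381 in dCD EpiSC, against 0.203 and 0.207 in WT EpiSC, while in EpiLC it was 0.277 and 0.409 in dCD, against 0.373 and 0.279 in WT. The ratio was not tested.

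Ncoa6 (chromosome 2, 155390656 to 155473894, minus strand), whose product links the complex to nuclear receptors, was at 7.49 and 12.1 in dCD EpiLC, against 11.8 and 8.18 in WT EpiLC. The dCD values enclosed the WT values. In EpiSC it was at 16.5 and 17.2 in dCD, against 15.6 and 12.6 in WT, with dCD higher in both libraries (log2 0.25 ± 0.25, adjusted p = 0.583, and -0.04 ± 0.25, adjusted p = 0.956, in EpiLC). Paxip1 (chromosome 5, 27740080 to 27791691, minus strand) was at 37.1 and 40.9 in dCD EpiLC, against 47.9 and 38.4 in WT EpiLC, and at 39.7 and 36.6 in dCD EpiSC, against 43.3 and 41.4 in WT EpiSC. Its fold changes were close at both stages, log2 -0.14 ± 0.13 in EpiLC (adjusted p = 0.596) and -0.15 ± 0.13 in EpiSC (adjusted p = 0.527), and only the EpiSC groups were apart. Over both stages Paxip1 had the smallest adjusted p of the 10 (0.411), and 0 of 10 passed in that comparison, where 4.79% of all genes did, with 0 of 10 also at an unadjusted p under 0.05 beside 21.9% of all genes.

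The other methyltransferase genes had the same arrangement of libraries. Kmt2a (chromosome 9, 44803355 to 44881296, minus strand) was at 3.14 and 9.40 in dCD EpiLC, against 8.10 and 4.56 in WT EpiLC, the widest replicate gap of the 10 genes as a ratio. In EpiSC it was at 7.54 and 9.58 in dCD, against 6.83 and 6.82 in WT (log2 0.28 ± 0.43, adjusted p = 0.750). Its paralog Kmt2b (chromosome 7, 30568858 to 30588726, minus strand) was at 20.1 and 26.1 in dCD EpiLC, against 25.5 and 22.2 in WT EpiLC. In EpiSC Kmt2b was at 25.4 and 25.9 in dCD, against 23.4 and 22.7 in WT, with little spread (log2 0.15 ± 0.14, adjusted p = 0.576). For both paralogs the dCD values enclosed the WT values in EpiLC and lay above them in EpiSC.

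Setd1a (chromosome 7, 127776670 to 127800122, plus strand), with its paralog the source of most H3K4me3, was at 24.2 and 39.6 in dCD EpiLC, against 36.3 and 32.0 in WT EpiLC, and at 34.8 and 33.9 in dCD EpiSC, against 31.6 and 31.1 in WT EpiSC. Setd1b (chromosome 5, 123142193 to 123168629, plus strand) was at 4.52 and 9.43 in dCD EpiLC, against 8.57 and 5.50 in WT EpiLC. In EpiSC Setd1b was at 8.77 and 9.54 in dCD, against 6.23 and 5.77 in WT, the highest log2 fold change of the 10 members at that stage. That change was 0.54 ± 0.31 (95% interval -0.20 to 1.27, adjusted p = 0.322), against 0.13 ± 0.21 for Setd1a (adjusted p = 0.766). As for Kmt2d, the Setd1b value passed with the EpiSC libraries fitted alone (adjusted p = 0.0258), beside the same 27.6% of all genes.

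Kdm1a (chromosome 4, 136550540 to 136602723, minus strand), the demethylase, was the only member whose EpiLC groups were apart with dCD above. It was at 110.1 and 114.7 in dCD EpiLC, against 100.9 and 98.6 in WT EpiLC (log2 0.17 ± 0.08, 95% interval -0.03 to 0.37, adjusted p = 0.276). In EpiSC Kdm1a was at 129.8 and 126.6 in dCD, against 129.9 and 135.7 in WT (log2 -0.05 ± 0.08, adjusted p = 0.773), a difference smaller than the gap between the WT libraries.

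By this count, in EpiLC 1 member of 10 had both dCD libraries above both WT libraries and 0 had both below, beside 26.8% and 17.7% of all genes tested. In EpiSC 7 members (Kmt2a, Kmt2b, Kmt2c, Kmt2d, Setd1a, Setd1b and Ncoa6) had both dCD libraries above, beside 35.0% of all genes, and 3 (Kdm6a, Paxip1 and Kdm1a) had both below, beside 36.5%. As deposited, all 6 methyltransferase genes were thus on the higher side in dCD EpiSC. All genes over 8000 bases also lay more often on that side (47.9%) than genes of up to 1000 bases (20.7%). With the length trend of each library removed, the EpiSC groups of Kmt2b and Setd1a overlapped. The difference between the stages was tested directly as the EpiSC effect less the EpiLC effect. It passed for 0 of 10 members, where 10.4% of all genes did, and at an unadjusted p under 0.05 for 0, beside 24.8%. Kmt2d had the highest difference of the 10, at 0.69 ± 0.55 (95% interval -0.62 to 1.99, adjusted p = 0.514).

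**Figure D2:**
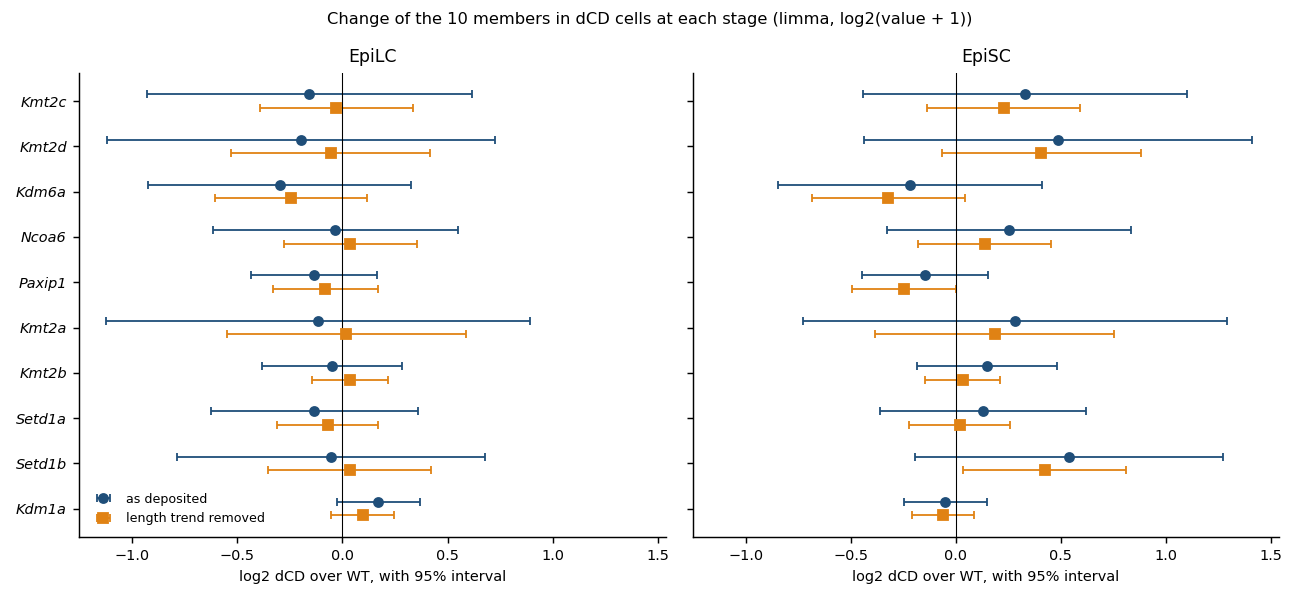
Log2 fold change of dCD over WT (horizontal axis, with the 95% interval) for the 10 genes in EpiLC (left) and EpiSC (right), as deposited (circles) and with the transcript length trend of each library removed (squares). As deposited, all 20 intervals cross 0. Setd1b in EpiSC is at 0.54 as deposited and 0.42 with the trend removed, where its interval lies above 0 but its adjusted p is 0.113.

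The replicate gaps in EpiLC ran with transcript length. For 9 of the 10 members, all but Kdm1a, dCD replicate 1 and WT replicate 2 were both below the other EpiLC libraries, an arrangement held by 26.2% of all genes and by 60.9% of the 2477 genes over 5000 bases. The longest transcripts had the widest gaps. In dCD EpiLC replicate 2 over replicate 1 was 2.99 for Kmt2a (16470 bases), 2.79 for Kmt2d (19823 bases) and 2.32 for Kmt2c (14967 bases), and 1.10 for Paxip1 (5850 bases) and 1.04 for Kdm1a (3028 bases). In WT EpiLC replicate 1 over replicate 2 was 1.77 for Kmt2a, 1.72 for Kmt2d and 1.63 for Kmt2c, and 1.25 for Paxip1 and 1.02 for Kdm1a.

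Over the 10 members the log2 of this gap correlated with log2 transcript length at Pearson r = 0.87 (Spearman rho 0.87) in dCD and 0.88 (rho 0.85) in WT. This is a description across 10 genes that share the same libraries, and genes are not independent replicates. Across 12610 genes tested with a length, the gap in log2(value + 1) correlated with length at r = 0.44 in dCD and 0.39 in WT. The members stand at the long end of the transcriptome. Kmt2d, Kmt2a and Kmt2c are at the 99.1, 99.0 and 98.8 percentile of transcript length, and Kdm1a is at the 50.8 percentile.

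**Figure D3:**
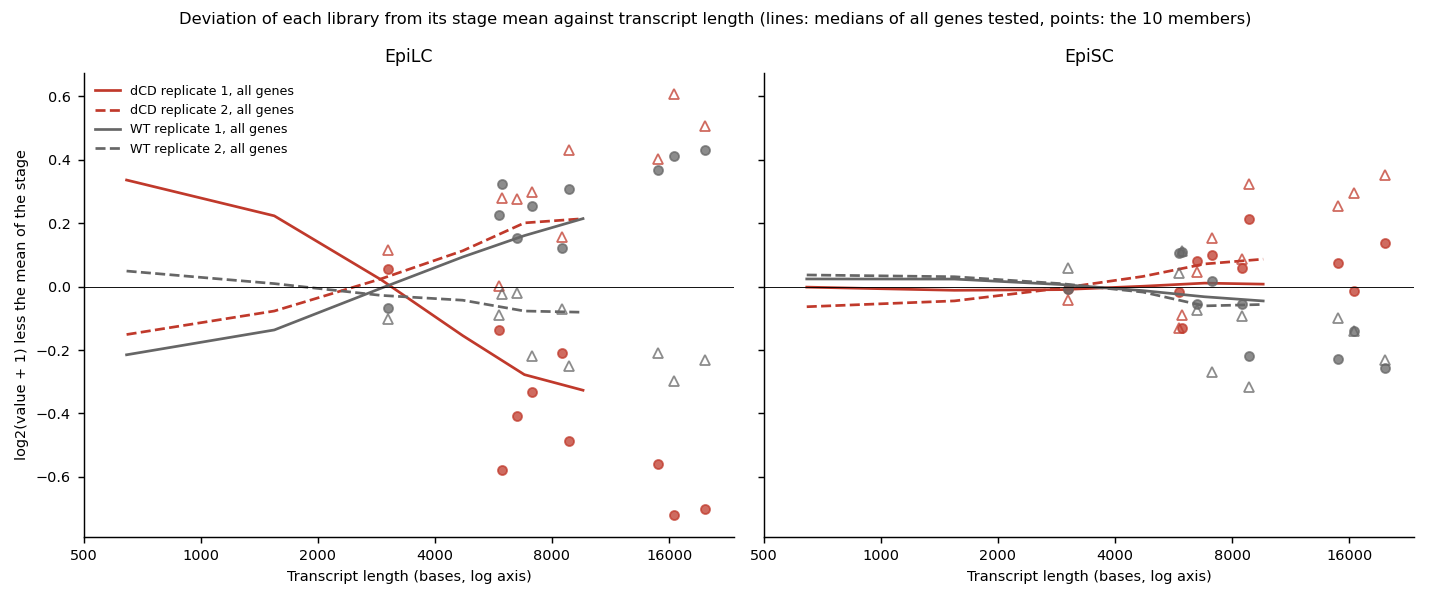
Deviation of each library from the mean of its stage in log2(value + 1) (vertical axis) against transcript length in bases (log axis), in EpiLC (left) and EpiSC (right), with lines for the medians of all genes tested in 6 length classes and points for the 10 members (filled circles replicate 1, open triangles replicate 2). In EpiLC the class over 8000 bases is at -0.33 and 0.21 in dCD, against 0.21 and -0.08 in WT, and the class up to 1000 bases at 0.34 and -0.15 in dCD, against -0.22 and 0.05 in WT.

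With the length trend of each library removed, the EpiLC values of Kmt2d were 3.85 and 6.27 in dCD, against 5.85 and 4.56 in WT, and those of Kmt2b 24.7 and 22.6 in dCD, against 22.5 and 23.6 in WT. The gap narrowed for Kmt2d and nearly closed for Kmt2b. In EpiSC Setd1b then read 8.65 and 8.86 in dCD, against 6.48 and 6.08 in WT (log2 0.42, adjusted p = 0.113), and Kdm6a 19.9 and 19.6 in dCD, against 24.7 and 25.1 in WT (log2 -0.32, adjusted p = 0.185). Kmt2d in EpiSC had log2 0.41 (adjusted p = 0.197) and Paxip1 -0.25 (adjusted p = 0.141). The EpiSC groups then overlapped for Kmt2b (25.02 and 24.18 in dCD, against 24.22 and 23.82 in WT) and Setd1a (34.2 and 31.8 in dCD, against 32.6 and 32.6 in WT). Those of Ncoa6 and Kdm1a overlapped too, while Kmt2a, Kmt2c, Kmt2d and Setd1b stayed higher in dCD and Kdm6a and Paxip1 lower. At either stage 0 of 10 members passed, beside 17.4% of all genes in EpiLC and 21.9% in EpiSC. What gives the libraries these length trends was not tested.

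The members differed in level by more than the genotypes or stages did. In EpiLC of both genotypes and in dCD EpiSC the order of the means was Kdm1a, Paxip1, Setd1a, Kmt2b, Kdm6a, Ncoa6, Setd1b, Kmt2a, Kmt2d and Kmt2c. Kdm1a was at 112 ± 3.24 (SD, n = 2) in dCD EpiLC, against 99.8 ± 1.64 in WT EpiLC, and Kmt2c at 4.27 ± 2.40 in dCD EpiLC, against 4.67 ± 1.58 in WT EpiLC. In WT EpiSC, with narrow replicates, the order had Kdm6a above Kmt2b, Kmt2a above Setd1b and Kmt2c above Kmt2d. Setd1b, Kmt2a, Kmt2d and Kmt2c overlapped each neighbour in that order in every group but WT EpiSC, where only Kmt2c and Kmt2d overlapped.

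Of the summed scaled TPM of the 6 methyltransferase genes, Setd1a made up 36.1% to 44.5% and Kmt2b 26.6% to 35.1% over the 8 libraries. Kmt2a made up 5.49% to 10.2%, Setd1b 7.52% to 10.2%, Kmt2d 4.75% to 8.45% and Kmt2c 4.49% to 7.44%. The enhancer methyltransferases were thus the 2 lowest of the 6 by median share, 6.99% for Kmt2d and 6.21% for Kmt2c. Both transcripts are long, and the Kmt2d share was 4.75% and 7.74% in the dCD EpiLC libraries. The part of the length trend in this order was not tested. These are shares of mRNA per length and say nothing of protein.

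EpiLC and EpiSC tables appear to have been scaled separately, and levels across stages are therefore given as ratios with no test. The ratio of the EpiSC mean to the EpiLC mean was above 1 for 9 of 10 members in dCD and 5 of 10 in WT. Of the 12717 genes tested it was above 1 for 7334 in dCD and 8072 in WT. The member median was 1.34 in dCD and 1.02 in WT, beside 1.09 in dCD and 1.13 in WT over all genes tested. Ncoa6 had the highest ratio in dCD, 1.72, against 1.41 in WT. Kdm6a had 1.44 in dCD, against 1.41 in WT, and Kdm1a 1.14 in dCD, against 1.33 in WT. As deposited, every EpiSC library was above every EpiLC library of its genotype for these 3 genes. That arrangement was held by 4 of 10 members in dCD and 3 of 10 in WT. Of the 12717 genes tested, 5427 held it in dCD and 6477 in WT. With other scalings the groups overlapped for WT Ncoa6 under all 3 tried, for dCD Kdm6a with libraries rescaled to 1 total and with the length trend removed (ratio 1.08), and for dCD Kdm1a with the length trend removed (1.03).

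All members but Paxip1 and Kdm1a had a higher EpiSC to EpiLC ratio in dCD than in WT as deposited, Kmt2c, Kmt2d and Setd1b among them. The limma test of the difference between stages did not pass for Kmt2c (adjusted p = 0.588), Kmt2d (0.514) or Setd1b (0.473). Kmt2c had 1.53 in dCD, against 1.07 in WT, and Kmt2d 1.42 in dCD, against 0.869 in WT, with Setd1b at 1.31 in dCD, against 0.853 in WT. The EpiLC replicates of Kmt2d and Setd1b enclosed or overlapped the EpiSC values, so these ratios are within the spread between replicates, while the dCD EpiSC values of Kmt2c lay just above both dCD EpiLC values as deposited and overlapped them with each other scaling. Paxip1 stayed at 0.978 in dCD and 0.981 in WT. Above 1 were 9 of 10 ratios in dCD and 5 of 10 in WT as deposited. With libraries rescaled to 1 total these counts were 10 in dCD and 5 in WT. They were 8 in dCD and 3 in WT with joint median-of-ratios scaling. With the length trend removed over the 8 libraries together they were 6 in dCD and 3 in WT.

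The genes whose log2(value + 1) profile over the 8 libraries was most like the mean of Kmt2c and Kmt2d were, among 8895 genes with a mean of at least 5, Gtf2a1 (r = 0.99), Srcap (r = 0.99), Sash1 (r = 0.99), Kmt2a (r = 0.98) and Ubn2 (r = 0.98). Gtf2a1, a subunit gene of the general factor TFIIA, was at 10.7 and 16.8 in dCD EpiLC, against 17.2 and 13.4 in WT EpiLC, and 16.6 and 18.1 in dCD EpiSC, against 14.9 and 15.3 in WT EpiSC. Srcap, a chromatin remodeller gene for H2A.Z exchange, was at 10.1 and 29.3 in dCD EpiLC, against 28.6 and 16.9 in WT EpiLC, and 29.3 and 34.1 in dCD EpiSC, against 23.1 and 21.8 in WT EpiSC. In both, as in Kmt2d, dCD replicate 1 and WT replicate 2 were the lower EpiLC libraries, and the genes were picked for their likeness.

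With the group means removed, so that only replicate differences count, the 5 most alike were Gtf2a1, Arhgef11, Rest, Taok1 and Azin1. The correlation is over the same 8 libraries, and the genes share their length trend. The 100 most alike genes had a median transcript length of 6695.5 bases (6331.5 with group means removed), beside 3002 bases for all genes compared. Among members, with group means kept, Kmt2b had r = 0.98 and Setd1b r = 0.95, while Kdm1a and Paxip1 had r = 0.31 each. With group means removed the values were 0.98 for Kmt2b, 0.99 for Setd1b, 0.65 for Kdm1a and 0.69 for Paxip1.

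Of the other genes of the pathway, the core subunit gene Ash2l passed in EpiLC, where 10.1% of all genes tested did. ASH2L binds RBBP5 and is needed for the activity of every COMPASS enzyme. Ash2l was at 164.1 and 151.3 in dCD EpiLC, against 110.5 and 107.3 in WT EpiLC, with both dCD values above both WT values (log2 0.53 ± 0.09, adjusted p = 0.0125). In EpiSC it was at 104.9 and 104.2 in dCD, against 116.2 and 119.7 in WT (log2 -0.17 ± 0.09, adjusted p = 0.257), with the dCD values the lower ones. The EpiSC value passed with EpiSC fitted alone (adjusted p = 0.0416, beside 27.6% of all genes) and with array weights (0.0466, beside 32.7%). The difference between the stages passed as well (log2 -0.70 ± 0.12, adjusted p = 0.0157), beside 10.4% of all genes tested. The EpiLC call was lost when WT replicate 1 (adjusted p = 0.0900) or WT replicate 2 (0.0986) was left out, with EpiLC fitted alone (0.143), with array weights (0.0535) and with mitochondrial genes removed and libraries rescaled (0.0817). It held with the length trend removed (log2 0.48, adjusted p = 0.00900). Where 1 library is left out here and below, its group keeps 1 library, which is assumed to vary like the other groups.

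The other core genes did not follow Ash2l. Wdr5 was at 102.1 and 108.1 in dCD EpiLC, against 110.0 and 108.2 in WT EpiLC (adjusted p = 0.768), and Rbbp5 at 22.9 and 27.8 in dCD EpiLC, against 27.5 and 26.5 in WT EpiLC (adjusted p = 0.686). Of the 3 core genes tested, 1 rose in EpiLC and 2 did not pass, beside 10.1% of all genes passing. In EpiSC 3 did not pass, with a median log2 of -0.16, beside 14.5% of all genes passing. Dpy30 was not analysed here.

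Among 8 tested subunits of particular complexes, 1 fell in EpiSC, Psip1, and 0 passed in EpiLC. Of all genes tested 14.5% passed in EpiSC and 10.1% in EpiLC. Psip1 encodes LEDGF, a chromatin reader that binds menin and tethers the KMT2A and KMT2B complexes. It was at 223.1 and 219.9 in dCD EpiSC, against 283.4 and 306.4 in WT EpiSC (log2 -0.41 ± 0.11, adjusted p = 0.0484), and at 232.0 and 250.7 in dCD EpiLC, against 327.2 and 287.6 in WT EpiLC (log2 -0.35 ± 0.11, adjusted p = 0.101). The EpiLC value passed with the length trend removed (log2 -0.40, adjusted p = 0.0172), without dCD replicate 2 (0.0390) and with dCD and WT replicates of EpiLC paired crosswise as a block (0.0367), a setting chosen after seeing the data. The dCD values were the lower ones at both stages. Over both stages Psip1 fell by 0.38 on the log2 scale (adjusted p = 0.0335), where 4.79% of all genes tested passed. The EpiSC call was lost without any 1 of the EpiSC libraries (adjusted p between 0.149 and 0.313) or either EpiLC WT library (0.0729 and 0.0735), and the call over both stages without either WT library of EpiLC (0.101 and 0.0599) or any EpiSC library (0.106 to 0.125). It was also lost in EpiSC with quantile normalization (0.208), mitochondrial genes removed (0.278), no filter (0.0637), a mean of at least 5 (0.0587) and a pseudocount of 0.1 (0.0509), and over both stages with quantile normalization (0.0948) and mitochondrial genes removed (0.123).

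Men1, which encodes menin, was at 20.9 and 20.2 in dCD EpiLC, against 20.5 and 19.6 in WT EpiLC (adjusted p = 0.897), and did not pass in EpiSC (adjusted p = 0.797). Pagr1a, a short transcript of 1430 bases for a partner of PTIP, was chosen after its values were seen because its EpiLC libraries ran opposite to those of Kmt2d. It was at 21.1 and 6.78 in dCD EpiLC, against 9.36 and 18.8 in WT EpiLC. In EpiSC Pagr1a was at 20.9 and 14.1 in dCD, against 11.6 and 8.78 in WT (log2 0.72 ± 0.52, adjusted p = 0.437).

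**Figure D4:**
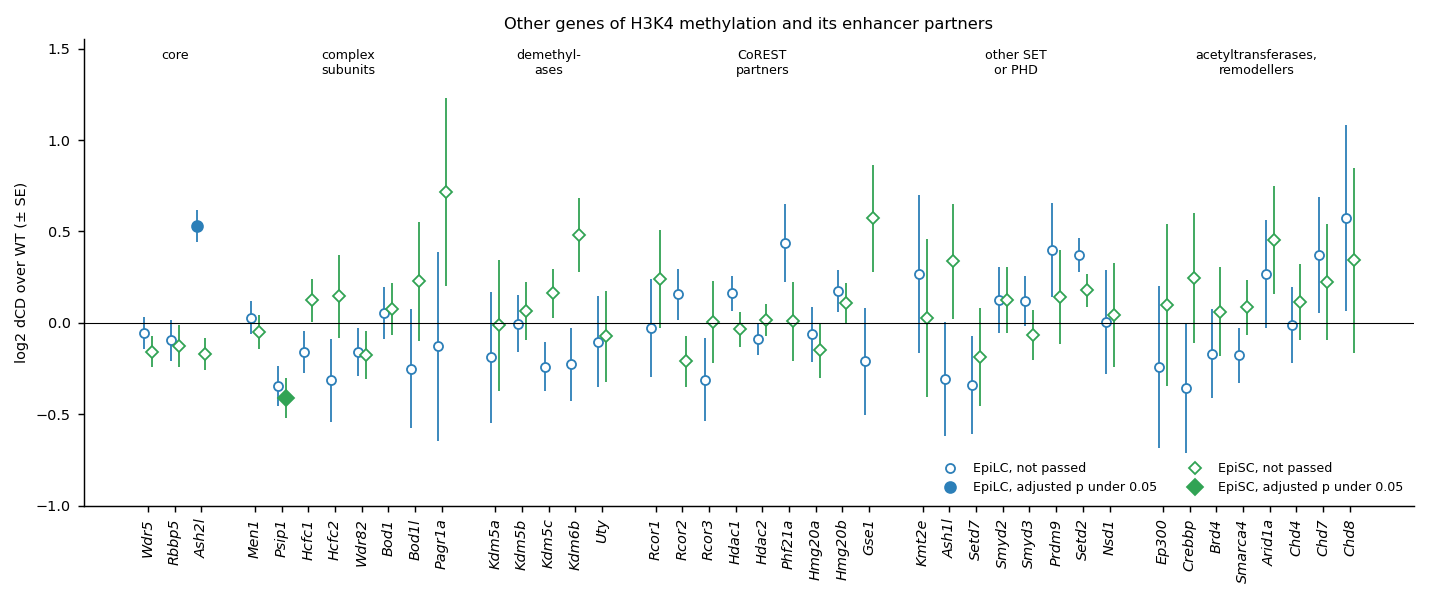
Log2 fold change of dCD over WT with its SE (vertical axis) for the other genes tested, in 6 groups, with circles for EpiLC and diamonds for EpiSC, filled where the adjusted p was under 0.05. The filled points are Ash2l in EpiLC at 0.53 and Psip1 in EpiSC at -0.41.

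The remaining lists had 0 genes passing in any comparison. Of all genes tested 10.1% passed in EpiLC, 14.5% in EpiSC, 10.4% for the difference and 4.79% over both stages. Of 5 demethylase genes tested, 0 passed in EpiLC and in EpiSC. Kdm6b, a paralog of Kdm6a that also acts on H3K27, was at 28.4 and 30.7 in dCD EpiSC, against 21.1 and 20.6 in WT EpiSC, opposite in sign to Kdm6a (log2 0.48 ± 0.20, adjusted p = 0.174). Kdm5c, an X-linked H3K4 demethylase gene, had log2 -0.24 ± 0.14 in EpiLC (adjusted p = 0.353) and 0.16 ± 0.14 in EpiSC (adjusted p = 0.516). Kdm1b, the paralog of Kdm1a, was below the filter, at most 0.938 in any library.

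Of 9 tested CoREST partners 0 passed at either stage, with a median log2 of -0.03 in EpiLC and 0.01 in EpiSC. The scaffold gene Rcor1 was at 7.26 and 13.5 in dCD EpiLC, against 12.0 and 8.52 in WT EpiLC, in the library order of the members, whereas the deacetylase gene Hdac1 was at 225.2 and 209.7 in dCD EpiLC, against 187.0 and 201.3 in WT EpiLC. Of 8 other SET or PHD genes 0 passed. Setd2, an H3K36 methyltransferase gene, came closest, at 47.0 and 44.0 in dCD EpiLC, against 36.5 and 33.4 in WT EpiLC (log2 0.37 ± 0.09, adjusted p = 0.0501).

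Of the 8 acetyltransferase and remodeller genes that work at the same enhancers, 0 passed at either stage. All 8 had a positive log2 fold change in EpiSC (median 0.17), and 5 had both dCD libraries above both WT libraries, beside 35.0% of all genes tested, and 41.3% to 47.9% in the 3 longest length classes, where all 8 transcripts fall. A positive log2 fold change in EpiSC was held by 6160 of all 12717 genes. The acetyltransferase gene Ep300 was at 13.3 and 38.7 in dCD EpiLC, against 34.2 and 21.6 in WT EpiLC, the same library order as Kmt2d, and at 35.8 and 38.9 in dCD EpiSC, against 35.9 and 33.8 in WT EpiSC (adjusted p = 0.810 in EpiLC and 0.924 in EpiSC). Arid1a, a BAF complex gene, was at 79.4 and 88.3 in dCD EpiSC, against 63.3 and 58.6 in WT EpiSC (log2 0.45 ± 0.30, adjusted p = 0.387).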

How the data were processed

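RNA-seq was analysed in 8 libraries, 2 per genotype and stage. The authors quantified reads from stranded TruSeq libraries with kallisto and summed abundances per gene in sleuth (Ensembl release 96, mm10), in versions not given in the sources used here. The deposited signal is TPM by header, times 1 factor per library, as column sums differ and 1 is above the total that TPM allows. The plan had assumed no such factor. It keeps no counts, so read depth and its precision are not known. The deposited table of embryonic stem cells has 6 columns of values that match no labelled sample and were not used.

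Identifiers were joined to GENCODE M21 (32013 of 32334 genes, 99.0%). The 12717 genes reaching 1 in at least 2 libraries were fitted as log2(value + 1) with 1 mean per group in limma 3.58.1 (R 4.3.3, eBayes with trend, two-sided). Benjamini-Hochberg adjustment ran over all genes of a contrast, with calls under 0.05. For both stages together a fit with stage and genotype terms was used. The length trend was a loess curve (span 0.3) of each library's deviation on log2 transcript length. Transcript length is that of the longest protein-coding transcript of a gene. The fit was tested on simulated data in which noise was drawn separately for each gene and library. Those data held no length trend, so that check does not cover the trend of these libraries. The members and lists were chosen with earlier results of these data known.

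All 10 members were named. Of each other list the genes with an adjusted p under 0.05 were named, up to 4 per contrast, and the 5 genes most like Kmt2c and Kmt2d. Other list genes were named after their values were seen. Alternatives covered pseudocounts of 0.1 and 5, filters, scaling, length, single libraries and the replicate block.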

Additional observations from a re-analysis of the deposited data

Results flagged for a closer look

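The dCD effect on Ash2l differed between the stages by a test of the difference itself, with log2 -0.70 ± 0.12 for the EpiSC effect less the EpiLC effect (limma, adjusted p = 0.0157). Of all genes tested 10.4% passed that test. Both dCD EpiLC libraries were above both WT EpiLC libraries, and both dCD EpiSC libraries were below both WT EpiSC libraries. The difference did not pass with mitochondrial genes removed and libraries rescaled (adjusted p = 0.103). The adjusted p was between 0.0660 and 0.0954 when 1 of the EpiSC libraries was left out. It was 0.0698 and 0.0755 without WT EpiLC replicate 1 and 2.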

How the results depend on the processing

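With no counts, depth limits cannot be stated, and 2 libraries per group limit every comparison. Of 820 member values under the alternatives, 747 kept their sign and their side of the threshold, 58 changed sign without a call and 15 passed newly. Some alternatives, such as a stage fitted alone or a library of the other stage left out, return the same log2 fold change by construction. Its sign could not change there. Replicate numbers are shared across genotypes in the labels only as numbers, and replicate differences of dCD and WT correlated over 12717 genes at -0.58 in EpiLC and -0.01 in EpiSC. The replicate block called 0 members in every comparison. With it 2.76% of all genes passed in EpiLC, 4.58% in EpiSC, 2.39% for the difference and 0.212% over both stages. It ended the calls of Ash2l in EpiLC (adjusted p = 0.146) and for the difference (0.156) and of Psip1 in EpiSC (0.272) and over both stages (0.219). The crossed pairing in EpiLC, chosen after seeing the data, called 0 members in EpiLC (beside 16.4% of all genes) and 1 in EpiSC (beside 21.2%). The share of all genes passing ran over 2.74% to 25.8% in EpiLC (main 10.1%), 3.99% to 32.7% in EpiSC (14.5%), 2.39% to 25.4% for the difference (10.4%) and 0.212% to 44.5% over both stages (4.79%). The cause of these changes was not tested.

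A single library left out leaves its group with 1, assumed to vary like the other groups, whose spread sets the p. In EpiLC 0 to 2 members passed in this way (beside 25.8% of all genes for the 2), the 2 without dCD replicate 2 being Kdm6a (log2 -0.73, adjusted p = 0.0214) and Setd1a (log2 -0.48, adjusted p = 0.0227). For the difference between stages the range was 0 to 3, again without that library (Kmt2d, Setd1a and Setd1b, beside 25.4% of all genes). In EpiSC 2 members passed with the stage fitted alone and 2 with EpiLC dCD replicate 1 and WT replicate 2 left out together, a setting chosen after seeing the data (Kmt2d and Setd1b in both, beside 27.6% of all genes in each), and Setd1b alone passed with array weights (1 member, beside 32.7%) and with the crossed block (1, beside 21.2%). Over both stages 4 passed with array weights, where 44.5% of all genes did, Kmt2c, Kmt2d and Setd1b higher and Kdm6a lower. Of the 20 ratios across stages 14 were above 1 as deposited and 9 with the length trend removed over 8 libraries. With libraries rescaled to 1 total 10 of 10 were above 1 in dCD and 5 of 10 in WT.

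Signs of values that had not passed changed as follows, with ranges over single libraries left out. In EpiLC these were -0.78 to 0.55 for Kmt2a, -0.23 to 0.13 for Kmt2b, -0.64 to 0.33 for Kmt2c, -0.80 to 0.41 for Kmt2d, -0.73 to 0.13 for Kdm6a, -0.48 to 0.21 for Setd1a, -0.52 to 0.40 for Setd1b, -0.35 to 0.28 for Ncoa6 and -0.29 to 0.021 for Paxip1. With the length trend removed, with or without the replicate block, Kmt2a was at 0.017, Kmt2b 0.035, Setd1b 0.034 and Ncoa6 0.036. With both libraries left out together Kmt2a was at 0.19, Kmt2b 0.034, Kmt2c 0.037, Kmt2d 0.076, Setd1a 0.12, Setd1b 0.12 and Ncoa6 0.043. For the difference the ranges were -0.27 to 1.06 for Kmt2a, -0.35 to 0.51 for Kdm6a, -0.081 to 0.60 for Setd1a, -0.028 to 0.60 for Ncoa6, -0.17 to 0.15 for Paxip1 and -0.16 to 0.028 for Psip1. With the length trend removed, with or without the block, Kmt2b was at -0.0022 and Kdm6a at -0.077, and with both libraries left out together Kdm6a was at -0.17 and Paxip1 at 0.075. Quantile normalization gave 0.0071 for Paxip1 and 0.052 for Psip1, and removal of mitochondrial genes with rescaling 0.12 for Paxip1 and 0.071 for Psip1. Over both stages the ranges were -0.14 to 0.39 for Kmt2a, -0.0054 to 0.14 for Kmt2b, -0.059 to 0.33 for Kmt2c, -0.028 to 0.46 for Kmt2d and -0.11 to 0.16 for Setd1a. Array weights gave 0.12 for Setd1a, -0.00055 for Kdm1a and -0.10 for Ash2l, and both libraries left out gave 0.13 for Setd1a.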
